A study of Mus musculus with 6 samples.

Results

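The guanylate-binding proteins are the genes described here: Gbp2, Gbp2b, Gbp3, Gbp4, Gbp5, Gbp6, Gbp7, Gbp8, Gbp9 and Gbp10. They were taken by name as 10 of the 51826 genes of the deposited table, as the family of Gbp2b. The family was chosen by the measured counts of Gbp2b in these libraries, which are present in KO and 0 in WT, so its difference between KO and WT is described and not tested. RNA was sequenced from CD34-KSL cells of mouse bone marrow, a stem cell fraction (Kit-positive, Sca-1-positive, lineage-negative) without surface CD34. The samples are 4 libraries labelled Elovl6 knock out (KO) and 2 labelled WT. Elovl6 lengthens fatty acids of the palmitate class. The labels give no strain, age, sex, targeting method or animal of origin, so a p-value reflects how far the libraries scatter, and that scatter may be technical. The comparison asks what loss of Elovl6 changes in these cells.

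Guanylate-binding proteins are large GTPases of the dynamin superfamily. Interferons, above all interferon-gamma, induce them in many mouse cells through ISRE and GAS promoter elements, which bind IRF and STAT factors. The proteins gather on the membranes of vacuoles that hold pathogens and on bacteria in the cytosol, and help to set off inflammasome caspases. Gbp2b is the gene long named Gbp1. Mouse Gbp2b, Gbp2 and Gbp5 end in a motif for lipid attachment that anchors them to membranes. Inbred mouse strains are known to carry alleles of Gbp2b that differ in whether interferon induces it.

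The family lies in 2 clusters (mm10), each 1 run of genes on 1 strand. On chromosome 3, plus strand, Gbp5, Gbp7, Gbp3, Gbp2b and Gbp2 follow each other over 144 kb. Gbp2b (ENSMUSG00000040264) spans 142594847 to 142619179, and Gbp2 (ENSMUSG00000028270) starts 1422 bases beyond its end. On chromosome 5, minus strand, Gbp8, Gbp9, Gbp4, Gbp10 and Gbp6 span 279.5 kb. There the annotated spans of Gbp8, Gbp9 and Gbp4 overlap one another, and Gm43302 overlaps both Gbp10 and Gbp6. Elovl6 lies on chromosome 3 too, and its end is 12.96 Mb before the start of Gbp2b.

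The promoters of Gbp2b and of its neighbours Gbp2 and Gbp3 are shown because these adjacent genes stood in different relations between KO and WT. The RefSeq promoter table (GRCm38.p6, the reference genome) held 5 of the 10 genes, those of chromosome 3. Each window has 300 bases, 250 before and 50 from the annotated start. Capitals mark the ISRE core GAAANNGAAA, which on the strand printed reads as its reverse complement. All are on the plus strand, at chr3:142594597-142594896, chr3:142620413-142620712 and chr3:142559794-142560093. The Gbp3 window belongs to the first of its 2 annotated starts.
Gbp2b: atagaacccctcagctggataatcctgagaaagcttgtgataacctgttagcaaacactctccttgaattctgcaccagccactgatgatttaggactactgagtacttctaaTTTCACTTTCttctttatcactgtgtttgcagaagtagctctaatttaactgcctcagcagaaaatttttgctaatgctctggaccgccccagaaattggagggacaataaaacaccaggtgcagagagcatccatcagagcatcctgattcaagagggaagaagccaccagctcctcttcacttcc
Gbp2: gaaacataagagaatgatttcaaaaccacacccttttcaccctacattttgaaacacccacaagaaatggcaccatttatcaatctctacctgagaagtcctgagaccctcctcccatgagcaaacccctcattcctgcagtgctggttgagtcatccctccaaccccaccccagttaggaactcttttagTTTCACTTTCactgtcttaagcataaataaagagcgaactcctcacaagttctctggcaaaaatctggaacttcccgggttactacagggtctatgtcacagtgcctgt
Gbp3: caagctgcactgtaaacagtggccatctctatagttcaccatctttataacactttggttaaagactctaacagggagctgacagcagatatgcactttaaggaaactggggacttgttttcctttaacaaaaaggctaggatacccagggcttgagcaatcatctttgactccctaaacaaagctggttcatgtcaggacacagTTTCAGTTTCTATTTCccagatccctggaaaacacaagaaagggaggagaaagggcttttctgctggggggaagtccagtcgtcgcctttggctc
Searched on both strands, the ISRE core was found in at least 1 window of each of the 5 genes and in 3.44% of the 32851 promoter windows of the table. Gbp2b and Gbp2 held the same letters, TTTCACTTTC, ending 127 bases before the start in Gbp2b and 49 in Gbp2. Gbp3 held a pair that overlap, TTTCAGTTTC and TTTCTATTTC. The GAS pattern TTCNNNGAA, present in 8.30% of all windows, was found in those of Gbp5 and Gbp7. These are reference letters, and the alleles of the mice sequenced are not given in the labels.

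The targeted gene Elovl6 had 106, 61, 56 and 18 counts in KO replicates 1 to 4, against 111 and 147 in WT. Scaled to library size it was lower in every KO library than in either WT library, without passing the threshold (log2 fold change -1.12, SE 0.32, adjusted p = 0.346, edgeR), and reads remained in all KO libraries.

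Gbp2b was read in every KO library and in no WT library. It had 400, 431, 234 and 183 counts in KO replicates 1 to 4, against 0 and 0 in WT. Scaled to a common library size (CPM, on TMM-normalized totals), this is 80.7, 90.0, 81.7 and 89.6 CPM in KO. A count of 0 allows up to 0.840 and 0.787 CPM in WT replicates 1 and 2, taking 3 counts of each total. With 3 counts over the WT group as the floor, Gbp2b was at least 212-fold higher in KO. Among all 11969 tested genes, 0.159% passed an adjusted p of 0.05 and KO lay wholly above WT in 10%, and nothing is read from these shares for Gbp2b, whose contrast chose it.

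The KO level of Gbp2b hardly varied. It averaged 85.5 ± 5.0 CPM (SD, n = 4), a coefficient of variation of 5.81%, where counting error alone would give 6.04%. The same measures were 8.16% and 5.40% for Gbp2 in KO, 14.0% and 5.15% for Gbp3, 12.3% and 5.24% for Gbp7, and 18.5% and 7.29% for Gbp5. These 4 genes of the cluster varied more between KO libraries than counting alone would give, and Gbp2b did not. Gbp8 (7.82% against 12.7% from counting) and Gbp9 (12.8% against 13.5%) on chromosome 5 did not either. The differences in variation were not tested, and a coefficient of variation from n = 4 is rough. Gbp2b was chosen by its counts in these same libraries, so its evenness in KO is only described.

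**Figure D1:**
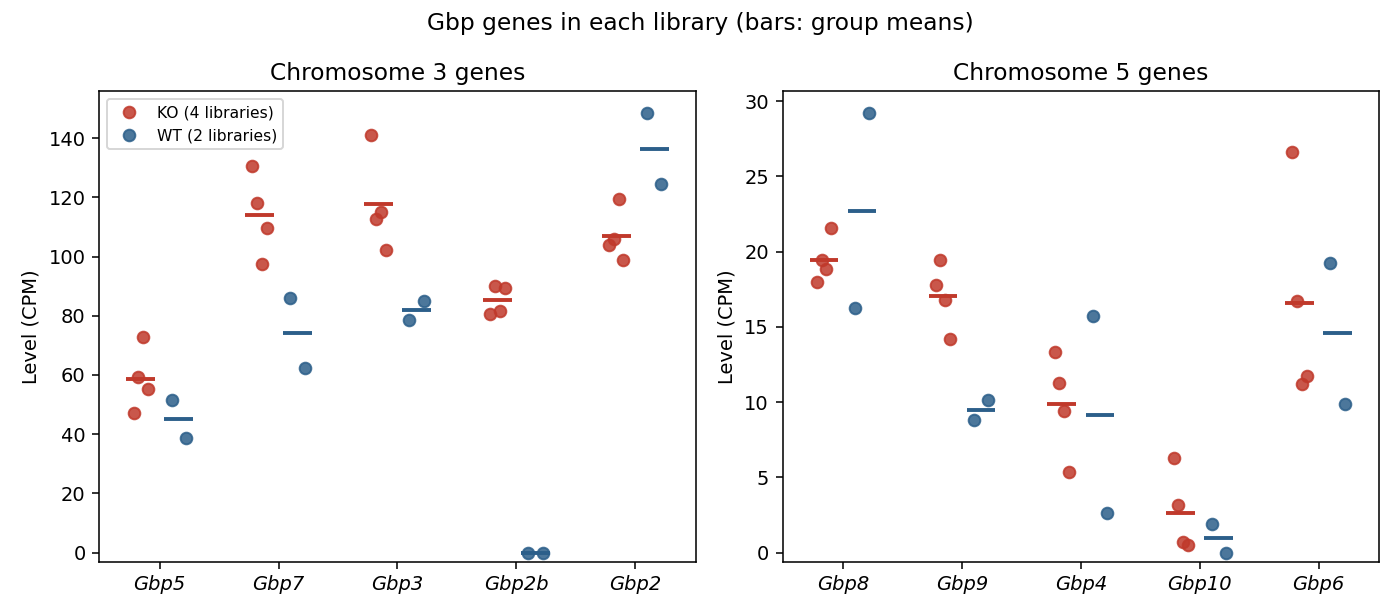
Levels of the 10 Gbp genes (y axes, CPM, separate scales) in each library, KO left of WT for each gene, with group means as bars. All 4 KO libraries have Gbp2b between 80.7 and 90.0 CPM and both WT libraries have none, while every other gene was read in both groups.

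The WT zero held for every kind of read. Unique exon, total exon, junction, unique intron and total intron reads of Gbp2b were all 0 in both WT libraries, so none came from multi-mapping either. The same libraries had 3599435 and 4384689 unique intron reads over all genes. In KO, junction reads, which cross from exon to exon in spliced RNA, made up 35.5%, 29.0%, 38.5% and 31.1% of the unique exon reads of Gbp2b in replicates 1 to 4. Gbp2 next to it had 37.4%, 37.0%, 32.7% and 35.6% in the same libraries. Its junction share was 35.4% and 34.3% in WT. Over the 11009 genes with at least 100 unique reads and a junction read, the median was 26.4%.

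Few Gbp2b reads fell in introns. In KO replicates 1 to 4 there were 3, 16, 11 and 17 unique intron reads, or 0.744% (95% Wilson interval 0.253 to 2.17), 3.58% (2.22 to 5.73), 4.49% (2.53 to 7.86) and 8.5% (5.37 to 13.2) of its unique exon and intron reads. The intervals of replicates 1 and 4 do not overlap, and the libraries as a whole differed in the same direction, with 47.9%, 53.6%, 58.8% and 63.3% of unique reads in introns. These intervals cover counting error only. The WT libraries were at 51.6% and 55.1%. Summed over the KO libraries, the intron share of Gbp2b was 3.63%, against a median of 24.2% over the 11009 genes in all 6 libraries. Its neighbours were low as well, with 4.51% for Gbp2, 5.51% for Gbp7, 6.57% for Gbp3 and 9.09% for Gbp5 in KO.

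Sequence shared within the family bears on how well each gene is told apart. Of the 50-base windows of the annotated Gbp2b transcript, 1.84% occur in a transcript of another gene, and that gene is Gbp2. Of the exon reads counted for Gbp2b, 99.8% had a single placement in the genome, as did 100% of those of Gbp2 and Gbp5, 99.3% of Gbp3 and 90.4% of Gbp7. On chromosome 5 the picture differs. Gbp6 shares 70.7% and Gbp10 84.1% of their windows with other genes, above all with each other and Gm43302. Only 5.36% of the exon reads of Gbp6 and 36.1% of those of Gbp10 were placed uniquely, with 43.8% for Gbp9, 45.6% for Gbp4 and 93.7% for Gbp8. The levels of Gbp4, Gbp6, Gbp9 and Gbp10 are therefore uncertain, since most of their exon reads fit several positions. Exon reads with several placements are left out of the deposited counts while junction reads with several placements are kept, and such junction reads make up 83.2% of the counts of Gbp6 and 21.4% of those of Gbp10.

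**Figure D2:**
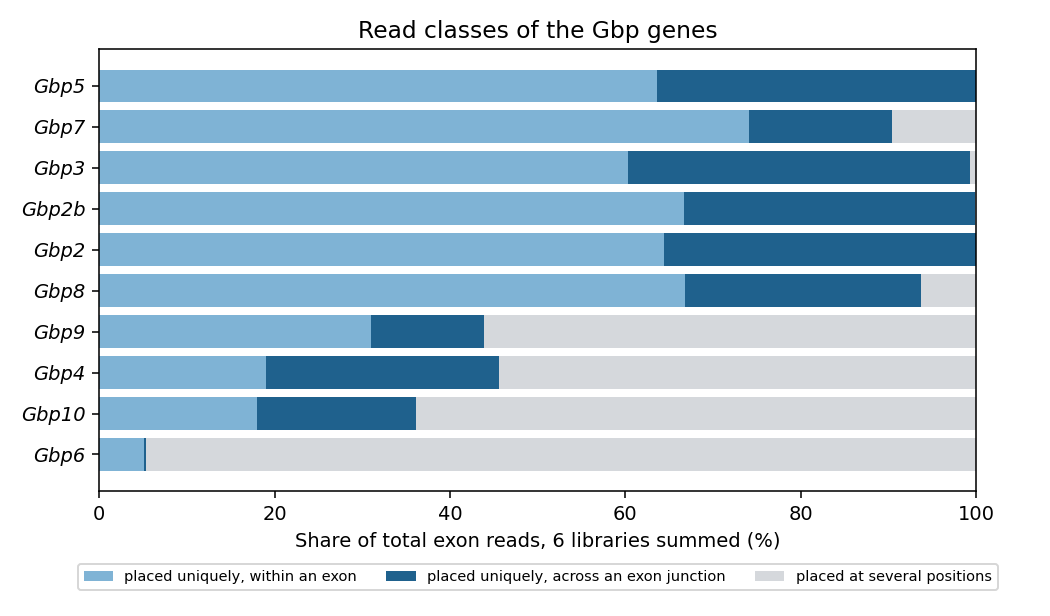
Share of total exon reads (x axis, %, 6 libraries summed) placed uniquely within an exon, uniquely across an exon junction or at several positions, for each Gbp gene. Gbp2, Gbp2b, Gbp3 and Gbp5 are almost wholly uniquely placed, and 94.6% of the exon reads of Gbp6 fit several positions.

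Per length, Gbp2b had rank 3 of the family in KO. Levels in CPM per kb of exon were 42.6 ± 3.5 for Gbp2, 36.1 ± 5.1 for Gbp3, 30.3 ± 1.8 for Gbp2b, 20.3 ± 2.5 for Gbp7 and 8.84 ± 1.63 for Gbp5 in KO (SD, n = 4). The libraries of Gbp2 and Gbp3 overlap in KO, as do those of Gbp3 and Gbp2b, while Gbp2b lies above Gbp7 in all. The chromosome 5 genes were lower, Gbp8 at 5.65 ± 0.44, Gbp9 at 3.29 ± 0.42, Gbp6 at 2.78 ± 1.20, Gbp4 at 1.31 ± 0.45 and Gbp10 at 0.682 ± 0.694 CPM per kb in KO. Of these, Gbp9 and Gbp6 overlap, and so do Gbp4 and Gbp10. The counts used leave out exon reads with several placements, so the places of Gbp4, Gbp6, Gbp9 and Gbp10 in this order are uncertain. Total exon reads in KO were 817 for Gbp6 (exon length 5954 bases). They were 840 for Gbp5 (6637 bases) and 300 for Gbp8 (3443 bases).

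In WT the order was Gbp2 at 54.2 ± 6.7, Gbp3 at 25.1 ± 1.3, Gbp7 at 13.2 ± 3.0, Gbp5 at 6.78 ± 1.38 and Gbp8 at 6.60 ± 2.66 CPM per kb (SD, n = 2). Gbp5 and Gbp8 overlap there. Gbp6 (2.45 ± 1.11), Gbp9 (1.83 ± 0.18), Gbp4 (1.22 ± 1.23) and Gbp10 (0.249 ± 0.352) followed, each overlapping the next. The same limit holds for them in WT, where total exon reads were 359 for Gbp6 and 335 for Gbp5. By the deposited counts, Gbp2b supplied 17.9% to 22.3% of the family's summed level per kb in KO and 0% in WT. The summed CPM of the other 9 genes was 504.7, 466.3, 461.8 and 419 in KO replicates 1 to 4, against 427 and 362 in WT replicates 1 and 2, so those groups overlap.

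None of the other 9 genes passed the genome-wide threshold (edgeR quasi-likelihood test, 0 of 9 at an adjusted p under 0.05, where 0.159% of all genes passed, 0.0919% higher and 0.0668% lower). DESeq2 and limma-voom also called 0 of them. At an unadjusted p under 0.05 there were 4 of 9 (Gbp7, Gbp3, Gbp9 and Gbp2), against 9.90% of all tested genes. Log2 fold changes of KO over WT were above 0 in 7 of 9, with a median of 0.38. Of all tested genes 51.0% were above 0, with a median of 0.01. The 7 include Gbp10, which passed the filter mainly through KO replicates 1 and 2. They also include Gbp4 and Gbp6, which turned when KO replicate 1 or WT replicate 2 was left out. The tally and the median are therefore a description. The groups did not overlap in 4 of 9 genes, 3 higher and 1 lower in KO, where 20.3% of all genes show this, 10% higher and 10.3% lower. As the genes are near copies in 2 clusters, they are not independent of one another. All 10 passed the filter on low counts.

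Gbp7, which binds subunits of the phagocyte NADPH oxidase, was at 131, 118, 97.4 and 109.6 CPM in KO replicates 1 to 4, against 86.2 and 62.3 CPM in WT. Every KO library lay above both WT libraries. Its log2 fold change was 0.62 (SE 0.19, 95% interval 0.20 to 1.04, adjusted p = 0.372, edgeR). Gbp3 was at 141, 113, 115 and 102 CPM in KO, against 78.7 and 84.9 CPM in WT, and these groups did not overlap either. Its log2 fold change was 0.53 (SE 0.17, interval 0.15 to 0.91, adjusted p = 0.390, edgeR).

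Gbp2, the direct neighbour of Gbp2b, was at 104, 106, 119 and 98.9 CPM in KO, against 148 and 125 CPM in WT, with every KO library below WT. The log2 fold change of -0.35 (SE 0.15, interval -0.68 to -0.02) had an adjusted p of 0.491 (edgeR). The ratio of Gbp2 to Gbp3 per kb, which does not depend on library scaling, was 0.957, 1.22, 1.34 and 1.25 in KO, against 2.45 and 1.90 in WT. This ratio was formed after the levels were seen and is a description. Gbp5, a promoter of NLRP3 inflammasome assembly, was at 47.0, 59.5, 73.0 and 55.3 CPM in KO, against 51.5 and 38.6 CPM in WT. Its groups overlap, and its log2 fold change was 0.38 (SE 0.21, interval -0.09 to 0.85, adjusted p = 0.602, edgeR).

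On chromosome 5, Gbp9 was at 17.8, 19.4, 16.8 and 14.2 CPM in KO, against 8.81 and 10.2 CPM in WT, with no overlap. Its log2 fold change was 0.85 (SE 0.31, interval 0.17 to 1.54, adjusted p = 0.434, edgeR). With total exon reads, which keep those with several placements, Gbp9 was at 0.52 (unadjusted p = 0.0514, edgeR). Gbp8 ran from 17.95 to 21.5 CPM in KO, against 16.2 and 29.2 CPM in WT (log2 fold change -0.23, SE 0.28). Gbp4 ran from 5.38 to 13.3 CPM in KO, against 15.7 and 2.60 CPM in WT (0.14, SE 0.61). The WT libraries thus differ from each other by more than the KO range for Gbp4 and Gbp8. Without WT replicate 2 the direction of Gbp4 turned (-0.64), as did that of Gbp8 (0.25). Gbp6 ran from 11.2 to 26.6 CPM in KO, against 19.3 and 9.90 CPM in WT (log2 fold change 0.21, SE 0.42), and was at -0.19 without WT replicate 2 and at -0.13 without KO replicate 1. With unique exon reads alone it was at -0.09.

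Gbp10 had 31, 15, 2 and 1 counts in KO replicates 1 to 4, against 7 and 0 in WT, and passed the filter mainly through KO replicates 1 and 2. Its log2 fold change of 1.55 (SE 1.24) ranged from 0.54 to 6.40 over the alternatives, the upper value being reached without WT replicate 1, which leaves a WT group at 0. No direction is read from it.

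**Figure D3:**
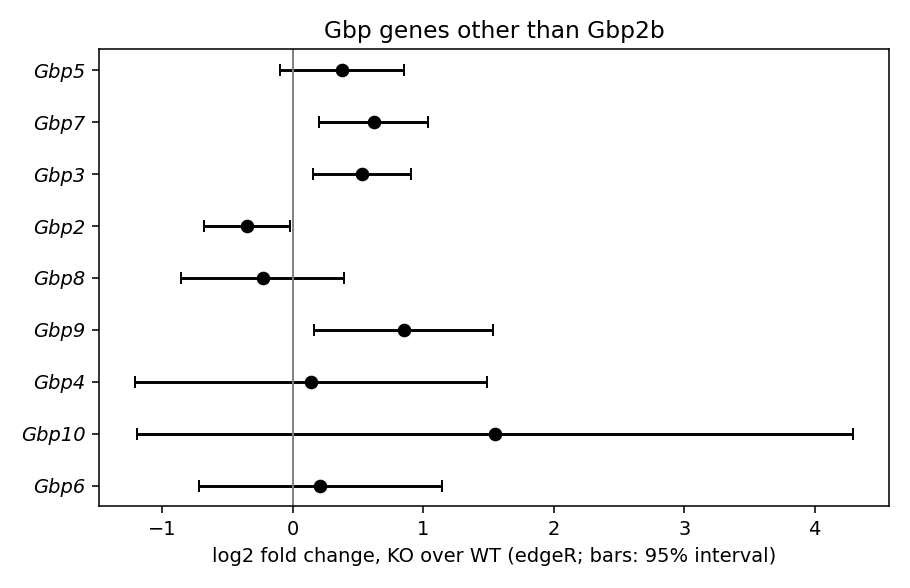
Log2 fold changes of KO over WT (x axis) from edgeR for the 9 Gbp genes other than Gbp2b, with 95% intervals as bars. The unadjusted intervals of Gbp7, Gbp3, Gbp9 and Gbp2 exclude 0, but no gene passed after adjustment over 11969 genes, and Gbp10 spans -1.19 to 4.29.

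Genes around the family were read next. Between Elovl6 and the end of the Gbp cluster, 41 other genes were tested, of which 0 were higher and 1 lower past the threshold (5 at an unadjusted p under 0.05), with a median log2 fold change of -0.07. The 1 that fell was the ribosomal protein gene Rpl34, 11.9 Mb before Gbp2b, by 1.20 on the log2 scale (SE 0.11, adjusted p = 0.00368, edgeR). Ribosomal protein genes have many near copies in the genome, so its level is uncertain. Lef1, a Wnt effector, followed at 2.24 (SE 0.79, adjusted p = 0.423, edgeR) and Manba, a lysosomal mannosidase gene, at -0.55 (SE 0.22, adjusted p = 0.468). Lef1 was very uneven between KO libraries, at 51.5 ± 52.3 CPM (SD), against 11.0 ± 3.1 CPM in WT. KO and WT did not overlap in 29.3% of these 41 genes, 3 higher and 9 lower in KO. The share of all genes was 20.3%, 10% higher and 10.3% lower.

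Within 2 Mb of the chromosome 3 cluster, 8 other genes were tested and 0 passed (edgeR, 1 at an unadjusted p under 0.05), with a median of -0.17. The leading ones were Lmo4 at 0.69 (SE 0.24, adjusted p = 0.424, edgeR), Pdlim5 at -0.68 (SE 0.32, adjusted p = 0.521) and Pkn2 at -0.29 (SE 0.20, adjusted p = 0.666). KO and WT did not overlap in 12.5% of these 8 genes, 1 higher and 0 lower in KO, beside 20.3% of all genes. Within 2 Mb of the chromosome 5 cluster, 18 other genes were tested and 0 passed (edgeR, 6 at an unadjusted p under 0.05, beside 9.90% of all genes). BC005561 was at 0.84 (SE 0.24, adjusted p = 0.342), the replication kinase gene Cdc7 at 0.90 (SE 0.31, adjusted p = 0.415) and the phosphatase gene Ptpn13 at -0.98 (SE 0.38, adjusted p = 0.453). There 55.6% of the 18 genes had groups without overlap, 4 higher and 6 lower in KO, beside 20.3% of all genes.

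A further gene on the same chromosome, picked after its values were seen, showed reads only in KO. Ifi44l, an interferon-induced gene starting 9.16 Mb beyond the start of Gbp2b (chromosome 3, 151758737 to 151762892), had 64, 0, 76 and 37 counts in KO replicates 1 to 4, against 0 and 0 in WT. KO replicate 2 had 0 counts too, so the groups overlap, unlike those of Gbp2b (adjusted p = 0.343, edgeR). The strain of the KO and WT mice is not given in the labels. A difference of strain, on chromosome 3 or elsewhere, and the loss of Elovl6 therefore cannot be told apart for Gbp2b and Ifi44l.

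**Figure D4:**
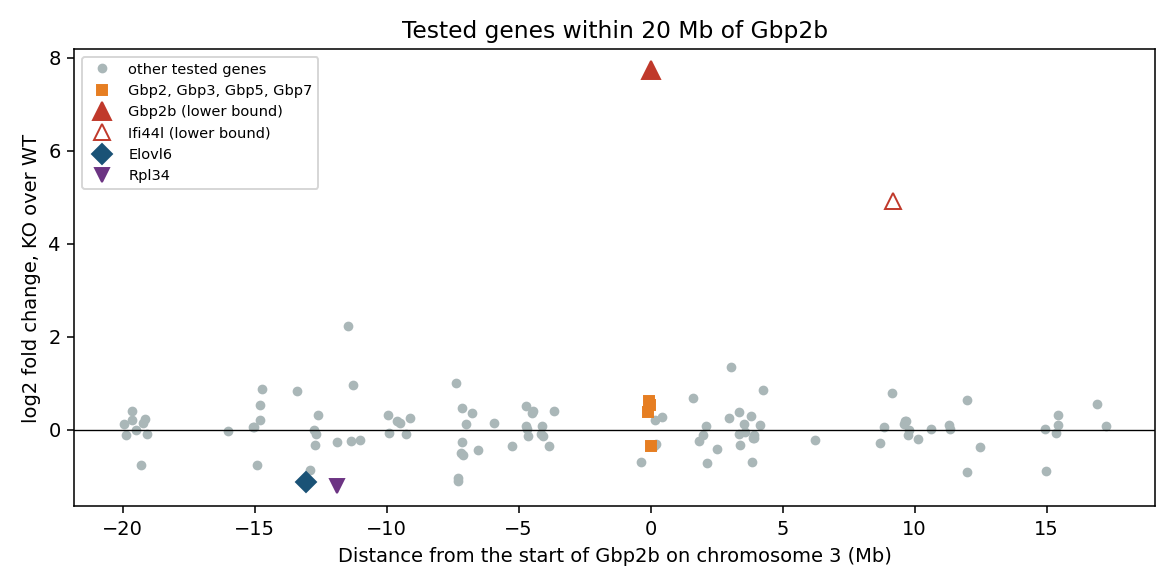
Log2 fold change of KO over WT (y axis) for the 112 tested genes whose start lies within 20 Mb of that of Gbp2b on chromosome 3 (x axis, Mb). Gbp2b and Ifi44l, at 0 counts in WT, are drawn at their lower bounds against 3 counts (at least 212-fold and 30.1-fold), and Rpl34 and Elovl6 lie at -1.20 and -1.12.

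The genes that act with the guanylate-binding proteins were taken from 4 lists, and none of their tested genes passed the threshold. Over all 11969 tested genes only 0.159% passed (edgeR), so 0 in lists of this size says little about the pathways. An unadjusted p under 0.05 was reached by 9.90% of all tested genes (edgeR), the share to set beside the list counts below. Of 17 tested interferon-inducible and related GTPases outside the family, 0 were higher and 0 lower (edgeR, 1 at an unadjusted p under 0.05), with a median log2 fold change of 0.16. Tgtp1, a T-cell GTPase gene with a near copy in Tgtp2, was at 5.65, 5.01, 4.19 and 1.47 CPM in KO, against 14.0 and 7.03 CPM in WT (log2 fold change -1.30, SE 0.54, adjusted p = 0.480). Gm12185 was at 0.43 and Gvin1, a giant GTPase gene, at 0.82 (adjusted p = 0.610 and 0.611). Irgm1, which guards vacuole membranes together with the Gbp proteins, was at 0.31 (SE 0.19). Gbp11, a polymorphic pseudogene in the annotation, had 3 counts in KO replicate 1 and 2 in WT replicate 2.

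Of 17 tested interferon-gamma signalling genes, 0 were higher and 0 lower (edgeR, 1 at an unadjusted p under 0.05), with a median of 0.06. The receptor gene Ifngr2 was at 48.4, 35.5, 45.0 and 41.1 CPM in KO, against 29.7 and 24.2 CPM in WT, with no overlap (log2 fold change 0.66, SE 0.21, adjusted p = 0.390). Its partner Ifngr1 was at -0.26 (SE 0.16, adjusted p = 0.624) and the immunoproteasome gene Psmb8 at -0.26 (SE 0.16, adjusted p = 0.625). Ifng itself had 1 count in KO replicate 4 and none in the other libraries. Of 30 type I interferon response genes, 0 were higher and 0 lower (1 at an unadjusted p under 0.05), with a median of 0.06. Ifi44, an antiviral gene, was at 62.3, 31.5, 64.6 and 31.3 CPM in KO, against 25.1 and 30.0 CPM in WT (log2 fold change 0.79, SE 0.33, adjusted p = 0.482). Stat2 was at 0.35 (SE 0.18, adjusted p = 0.551) and Parp14 at 0.36 (SE 0.18, adjusted p = 0.547).

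Of 27 tested partners of the family in inflammasomes, prenylation and autophagy, 0 were higher and 0 lower (edgeR, 4 at an unadjusted p under 0.05), with a median of -0.03. Casp4, the caspase that senses bacterial lipopolysaccharide with help of Gbp proteins, was at 17.3, 23.0, 13.6 and 13.7 CPM in KO, against 25.1 and 32.6 CPM in WT. Its log2 fold change was -0.75 (SE 0.28, adjusted p = 0.437). The cytokine gene Il18 was at -0.85 (SE 0.33, adjusted p = 0.446). Il1b had 21, 27, 1 and 29 counts in KO, against 0 and 1 in WT (adjusted p = 0.363). All adjusted p-values of the 4 lists are from the edgeR quasi-likelihood test, and DESeq2 and limma-voom called 0 of their genes.

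**Figure D5:**
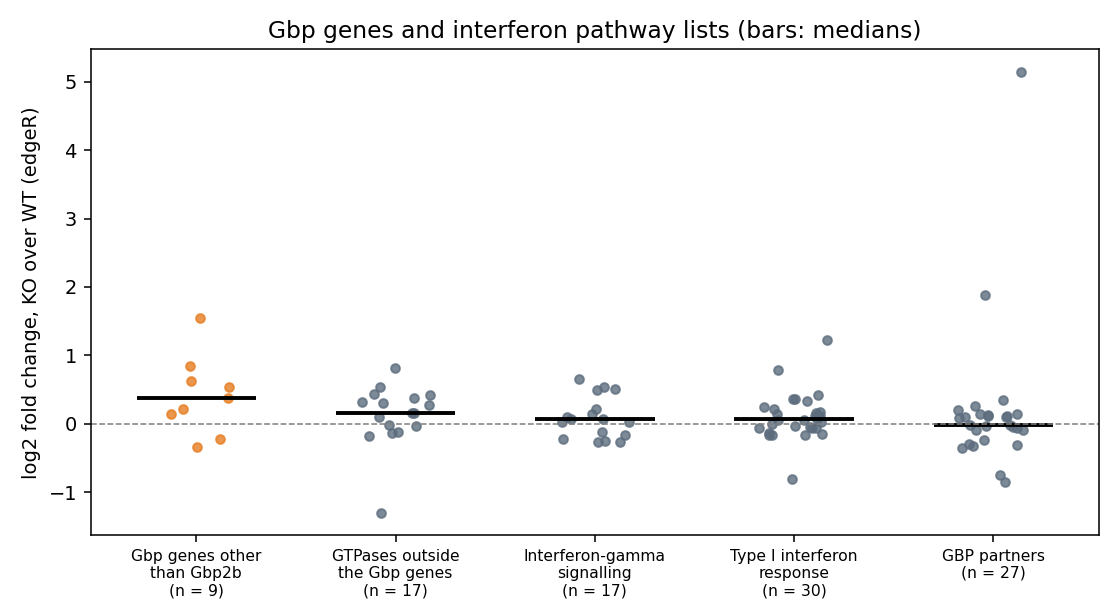
Log2 fold changes of KO over WT (y axis, edgeR) for the 9 Gbp genes other than Gbp2b and for each tested gene of the 4 pathway lists, with medians as bars. The medians run from 0.38 for the Gbp genes to -0.03 for the partners, and no gene shown passed the threshold. The Gbp genes include Gbp10, from which no direction is read. The point above 5 is Il1b, which has 1 count in WT.

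Among the 5 genes whose profile over the 6 libraries was most like that of Gbp2b, 4 lie in the histocompatibility region of chromosome 17. The measure was the root mean square difference of centred log2 CPM, and lower is more alike. As the profile of Gbp2b is the contrast that chose it, this search returns genes with few or no counts in WT, and the ranking is a description. H2-Ea-ps was at 1.13, H2-Q10 at 1.21, H2-Q2 at 1.30 and H2-Bl at 1.81. H2-Ea-ps had 67, 57, 64 and 47 counts in KO, against 0 and 0 in WT, and H2-Q10 had 138, 87, 141 and 35 in KO, against 2 and 0 in WT. Many genes of this region resemble one another. How uniquely the reads of these 4 genes were placed was not examined, so their counts are uncertain. For these genes too, a difference of strain and the loss of Elovl6 cannot be told apart. The other Gbp genes lay between 3.07 (Gbp9) and 3.61 (Gbp2). Gbp9, the most alike of them, had rank 386.

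The cell label was checked by its markers. Kit was at 966 to 1444 CPM and the stem cell genes Hlf at 551 to 775 and Mecom at 149 to 231 CPM over the 6 libraries. Some other stem cell markers were far lower, with Ly6a at 33.3 to 75.0 and Tek at 20.2 to 47.9 CPM. Slamf1 was at 5.24 to 22.4 and Hoxb5 at 0 to 1.04 CPM. Cd34 RNA, the marker the sort selects against as a surface protein, was at 305 to 417 CPM. The 14 macrophage, monocyte and dendritic markers, of cells that can express Gbp genes strongly, summed to 771 to 1414 CPM in KO, against 606 to 632 CPM in WT, and all 14 had counts. Flt3, also a progenitor gene, made up 338 to 721 CPM of this in KO and 309 to 344 CPM in WT. Without Flt3, left out after its values were seen, the sum was 246, 327, 219 and 1076 CPM in KO replicates 1 to 4, against 298 and 288 CPM in WT, and the groups overlap. The defining macrophage gene Adgre1 was at 1.88 to 10.3 CPM in KO, against 1.38 to 2.34 CPM in WT. The 12 T and NK markers summed to 35.1 to 52.4 CPM in KO, against 16.5 to 23.7 CPM in WT. Most of this was Cd4 (19.2, 11.9, 17.8 and 16.1 CPM in KO, 3.58 and 7.03 in WT) and Nkg7 (21.6, 12.3, 13.6 and 19.6, against 7.43 and 9.64). Low markers of the list were mixed. The T-cell genes Cd3e (at most 0.489 CPM in KO, 3.30 and 0 in WT) and Cd3d (at most 0.202, against 0 and 1.30) did not follow the sum. The NK gene Ncr1 did, at 2.22, 3.76, 2.09 and 1.47 CPM in KO, against 0 and 0 in WT. Cd8a was at 1.41, 1.88, 0.349 and 0 CPM in KO, against 0 and 0 in WT. The T and NK sum, and the macrophage sum with Flt3 but not without it, were higher in each KO library than in either WT library, as were Gbp2b, Gbp3, Gbp7 and Gbp9, and their part in these levels was not tested. In bulk RNA, fewer cells of a type and less RNA per cell cannot be told apart.

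Other marker sums were spread unevenly over the libraries. Beside a Gbp2b level of 80.7 to 90.0 CPM in KO, the 13 stem cell markers summed to 3082 to 4289 CPM, the 8 B-lineage markers to 137 to 853 CPM, the 8 erythroid markers to 251 to 2671 CPM and the 10 granulocyte and mast cell markers to 207 to 7723 CPM. In WT the same sums were 3815 to 4140, 116 to 175, 106 to 281 and 1058 to 1192 CPM. The upper ends in KO each came from 1 library. For the B lineage it was KO replicate 1, with 137, 182 and 295 CPM in replicates 2 to 4. For the other 2 it was KO replicate 4. KO replicates 1 to 3 had erythroid sums of 288, 475 and 251 CPM and granulocyte and mast cell sums of 410, 1271 and 207 CPM. Endothelial and stromal markers summed to 62.2 to 79.2 CPM in KO, against 70.6 to 80.7 CPM in WT. The part of these cells in the Gbp2b level was not tested. Counts assigned to genes totalled 2121240 to 5137628 in KO and 3569449 and 3812524 in WT, with KO replicates 3 and 4 the shallowest.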

How the data were processed

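Per the labels' protocols, a phenol-based reagent yielded the RNA and the library kit keeps the strand. The submitters' processing notes name mm10 as build. For aligner, counter and strand setting nothing is given in the sources used here. Read counts per gene were deposited by the authors, with separate counts of unique and total exon, junction and intron reads. Their expression counts equal unique exon reads plus junction reads not placed uniquely in 100% of values. Exon length was deposited by the authors too, in bases. In all, 48 other columns of library values entered no step. Positions were raised by 1, and those of all 10 genes match GENCODE M21.

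KO was set against WT by edgeR 4.0.16 under R 4.3.3 (filterByExpr, TMM, quasi-likelihood F test, genotype as the only term, all 6 libraries), adjusted by Benjamini-Hochberg over 11969 genes at 0.05. The SE is the log2 fold change over the square root of F. Alternatives used limma 3.58.1 and DESeq2 1.42.0, other filters and read classes, and left libraries out. The pathway lists, markers and members were chosen with earlier results of these data known. Named genes are the members, the 3 list or neighbouring genes with the smallest p and any past the threshold, the 5 most like Gbp2b and Elovl6. Irgm1, Ifng, Gbp11, Ifi44l and the markers named were chosen outside this rule. 1 gene is not reported here. Tables used pandas 2.3.3 and figures matplotlib 3.10.9.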

Additional observations from a re-analysis of the deposited data

How the results depend on the processing

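Gbp2b averaged 83.6 to 87.4 CPM in KO with each library left out in turn, 86.0 CPM without KO replicates 3 and 4, 90.4 CPM with unique exon reads and 71.8 CPM with total exon reads, where more reads enter the library totals. In WT every read class of Gbp2b is at 0, so no alternative could change that count. Of the other 9 Gbp genes 0 of those tested passed the threshold under each of the 16 alternatives, Gbp10 being filtered out in 4 of them, and the smallest adjusted p was 0.0793, for Gbp7 with no filter on low counts. Gbp2, Gbp3, Gbp5, Gbp7, Gbp9 and Gbp10 kept their direction in each alternative that tested them. Of 140 values, 6 turned: Gbp4 was at -0.04 without KO replicate 1 and -0.64 without WT replicate 2, Gbp6 at -0.13 and -0.19 in the same settings and at -0.0892 with unique exon reads, and Gbp8 at 0.25 without WT replicate 2. Without WT replicate 1, Gbp4 was at 1.93, Gbp6 at 0.77 and Gbp8 at -0.59. Where a WT library was left out, the lone one was assumed to vary like the others.

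Over all genes 19 passed. The count was 307 with no filter, 87 in the DESeq2 Wald test and 9 in limma-voom, 2 (without WT replicate 1) to 30 (without KO replicate 4) with 1 library left out, and 33 without KO replicates 3 and 4, and the cause was not tested. Leaving out WT replicate 2 gave 10, KO replicate 3 11 and KO replicate 2 12. The replicate block over the libraries numbered 1 and 2 gave 34, and the same libraries unpaired 33. Same-numbered deviations correlated at -0.09 over genes, which shows no pairing. It cannot exclude one, since only the libraries numbered 1 and 2 of each group enter it. With no filter 2 list genes passed, Cybb and Il1b (adjusted p = 0.000158 and 0.00400, edgeR), which rest on KO replicates that differ widely. Depth limits Gbp10, at 56 counts in all, and the WT zeros of Gbp2b.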
